A study of Mus musculus with 12 samples.

Results

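Intermediate filament proteins form the rope-like part of the cytoskeleton, and lamins form the filament layer under the nuclear membrane. The genes described here are 10 of the 38898 genes quantified: Vim, Nes, Des, Synm and Sync of mesenchymal and muscle filaments, Krt8, Krt18 and Krt19 of simple epithelia, and Lmna and Lmnb1 of the nuclear lamina. They were listed by name and role, and Krt19 was selected on its measured values in these same tumors; the contrast that drew attention to it is not recorded. The levels of Krt19 are therefore given as a description with no test, and counts of called genes run over the other 9.

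RNA was sequenced from 12 bulk subcutaneous tumors, 3 in each of 4 groups, dissected on day 16 after injection of Rd76-9 cells into the flank. Rd76-9 is a mouse rhabdomyosarcoma line, a tumor of the skeletal muscle lineage, and the hosts were wild-type C57/Bl6J mice of 8 to 12 weeks. The groups were vehicle (m1, m2 and m3), vincristine at 0.25 mg/kg (VCR; m4, m5 and m6), RCM1 at 8 µg in folic acid nanoparticles (RCM1; m7, m8 and m9) and both drugs (combination; m10, m11 and m12). Vincristine blocks microtubule assembly, and RCM1 is an inhibitor of the transcription factor FOXM1. The study's methods give saline and empty nanoparticles to the vehicle mice, whereas the treatment label of those tumors also names RCM1 nanoparticles; the groups follow the sample titles. All tumors come from 1 cell line, the libraries also hold host cells, and the labels do not say that each tumor came from a different mouse, so p-values measure the spread between these tumors.

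Each filament gene marks a class of cells. Vimentin is the filament of mesenchymal cells, nestin is found in muscle precursors, and desmin is a filament of muscle cells, not of differentiated muscle alone. Keratins are obligate pairs of a type II chain such as Krt8 with a type I chain such as Krt18 or Krt19 and mark epithelia. A-type lamins, both spliced from Lmna, and the B-type lamin encoded by Lmnb1 carry the nuclear shape, and lamins are taken apart at each mitosis.

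Estimated counts summed to between 29342195 and 32108055 per tumor. The muscle lineage markers of the line were present, with Myf5 at 38.8 to 59.9 TPM (a relative level of transcripts that is set per length) and Cdh15 at 78.1 to 115.6 TPM, whereas the differentiation factors Myod1 and Myog were at or near 0 in the vehicle tumors. With edgeR's quasi-likelihood test and a threshold of 0.1 on the Benjamini-Hochberg adjusted p, 977 of 17602 genes (5.55%) differed between VCR and vehicle. The test called 0 genes (0%) in each of the other 5 comparisons, RCM1 or the combination against vehicle, the combination against VCR or RCM1, and the interaction of the drugs. At an unadjusted p under 0.05, those 5 comparisons held 1722, 1286, 926, 364 and 2437 genes. DESeq2 called 278, 60, 0, 0 and 472 genes there, and limma-voom called 0 in each.

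The order of the mean levels over the 12 tumors was Vim, Lmna, Nes, Lmnb1, Des, Sync, Synm, Krt8, Krt19 and Krt18. Vim ranked 45 among all genes at 3585 TPM, Lmna ranked 213 at 558.8 TPM, Nes ranked 874 at 161 TPM and Lmnb1 ranked 1350 at 110.5 TPM. These 4 levels did not overlap in any tumor, since Lmna lay between 506.6 and 618.2 TPM, Nes between 134.6 and 179.4 TPM and Lmnb1 between 90.0 and 128.7 TPM. Below them the order was not fixed: Des ranged from 4.45 to 317.2 TPM, across the whole range of Sync and Lmnb1, and Synm and the 3 keratins overlapped each other. In the 3 vehicle tumors Sync, at 6.63 to 8.07 TPM, stood above Des in every one.

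**Figure D1:**
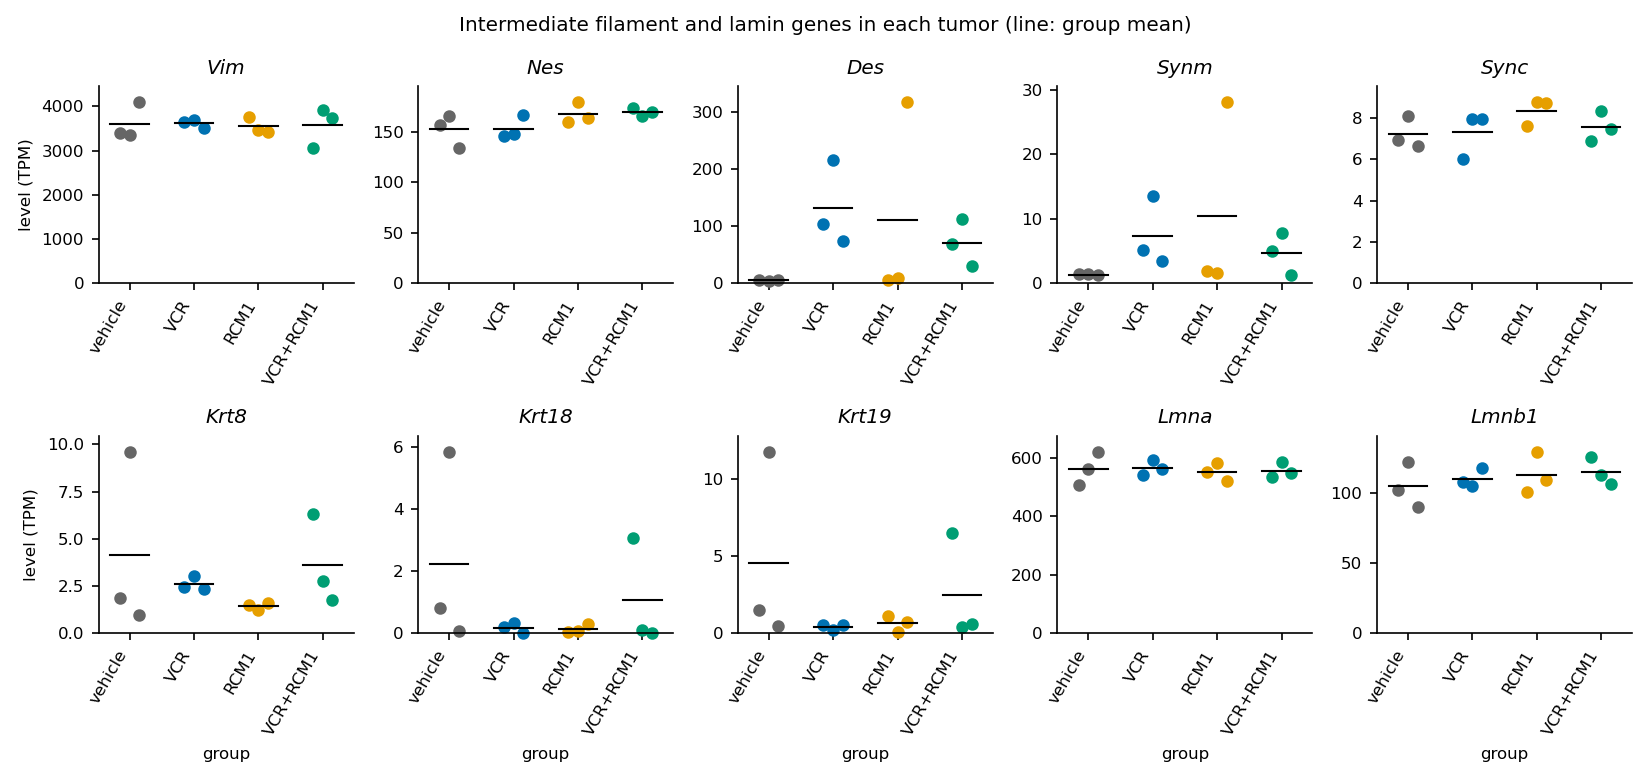
Level of each gene in TPM (vertical axes, each from 0) in the 12 tumors, by group; points are tumors and lines are group means. Vim, Nes, Sync, Lmna and Lmnb1 stayed within a narrow band, Des and Synm were high in VCR tumors, in 1 RCM1 tumor and in combination tumors (Synm in 2 of 3), and the keratins were high in 1 vehicle and 1 combination tumor.

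Spread over the 12 tumors separated the genes into 2 kinds. The coefficient of variation of TPM was 5.72% for Lmna, 7.80% for Vim, 7.94% for Nes, 10.2% for Lmnb1 and 11.2% for Sync. It was 85.5% for Krt8, 123.3% for Des, 131.4% for Synm, 173.3% for Krt19 and 197.4% for Krt18. All 10 genes passed the filter on low counts, but Krt18 reached 10 counts in only 3 tumors (m1, m2 and m10) and Krt19 in 8.

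Vim and Nes differed little between groups, and edgeR called neither in any comparison. Vim, the filament of mesenchymal cells, read 3356, 3388 and 4087 TPM in the vehicle tumors, 3505, 3641 and 3698 in VCR tumors, 3414, 3472 and 3755 in RCM1 tumors and 3049, 3731 and 3925 in combination tumors. The groups overlapped. Its log2 fold changes against vehicle were 0.06 in VCR, -0.01 in RCM1 and -0.03 in the combination, each with an SE of 0.14. The 95% intervals of the 3 differences lay within -0.33 and 0.36 on the log2 scale, so a doubling or halving of Vim lies outside them.

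Nes, the large filament protein of muscle and neural precursors, read 134.6, 157.3 and 166.3 TPM in vehicle tumors and 145.7, 148.0 and 166.7 TPM in VCR tumors. It read 160.0, 163.8 and 179.4 TPM in RCM1 tumors and 166.4, 169.8 and 173.9 TPM in combination tumors. In TPM the combination tumors stood just above the vehicle tumors, and the other groups overlapped with the vehicle tumors. In CPM (counts scaled to library size) the RCM1 tumors did not overlap with them either. The edgeR log2 fold change was largest in RCM1, at 0.16 (SE 0.08, 95% interval -0.0042 to 0.33, adjusted p = 0.522), and was 0.07 in VCR and 0.15 in the combination.

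Of the muscle filament genes, Des rose in VCR, and Synm was high in most of the tumors where Des was high. Desmin links neighbouring myofibrils at the Z-disc, and synemin joins desmin filaments to the cell membrane. Des read 4.45, 5.77 and 5.88 TPM in the vehicle tumors and 74.9, 104.1 and 216.6 TPM in VCR tumors. It read 6.41, 9.64 and 317.2 TPM in RCM1 tumors and 29.5, 69.5 and 113.0 TPM in combination tumors. Each treated tumor stood above each vehicle tumor, but m7 and m8 of RCM1 lay just above them and m9 alone was high in that group.

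Des rose in VCR by a log2 fold change of 4.70 (26.0-fold, SE 1.29, 95% interval 1.88 to 7.52), with an edgeR adjusted p of 0.0908. It was the only one of the 9 genes that edgeR called in any of the 6 comparisons, beside 5.55% of all genes called in that contrast. DESeq2 with all 12 tumors, which called 14.4% of the genes it tested for VCR, gave Des an adjusted p of 0.00392. The edgeR call was lost when m1, m2, m3, m4, m5, m10, m11 or m12 was left out, with log2 fold changes of 4.09 to 4.98 and adjusted p from 0.00535 to 0.315 over all 12 omissions, and limma-voom gave an adjusted p of 0.127.

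In RCM1 the Des difference depended on m9. The log2 fold change in RCM1 was 4.37 (SE 1.27, adjusted p = 0.419 by edgeR) and fell to 0.62 (SE 0.55, adjusted p = 0.891) without m9. DESeq2 with all 12 tumors called Des in RCM1 (adjusted p = 0.0326, where it called 1.52% of genes). The combination tumors differed from vehicle by 3.69 on the log2 scale (12.9-fold, SE 1.24, edgeR adjusted p = 0.666). DESeq2 did not call Des there with all 12 tumors (adjusted p = 0.195), but did with only the groups compared (adjusted p = 2.24e-08). For that pairwise fit too, the share of all genes called is not given here. Without m9 the edgeR difference of the combination from vehicle was 3.68 (SE 0.52, adjusted p = 0.0444), which was a call. The share of all genes called in that fit is not given here, so the call cannot be set beside it. Leaving out m5 and m9, the tumors with the most Des, narrowed the spread. Des was then called in VCR at 4.08 (SE 0.45, edgeR adjusted p = 0.00642, 1.42% of genes called). It was also called in the combination at 3.68 (SE 0.43, edgeR adjusted p = 0.0202, 0.772% called). These calls lend no further support, because the tumors left out were those highest in the gene tested.

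Synm read 1.29, 1.38 and 1.42 TPM in the vehicle tumors and 3.53, 5.16 and 13.6 TPM in VCR tumors. It read 1.55, 1.84 and 28.1 TPM in RCM1 tumors and 1.21, 4.95 and 7.82 TPM in combination tumors. VCR and RCM1 tumors all stood above vehicle, whereas m12 of the combination was the lowest of the 12 in TPM. In counts it was not the lowest, at 172 against 168 in m3. The log2 fold changes were 2.31 (SE 1.01, edgeR adjusted p = 0.21) in VCR, 2.78 (SE 1.02, adjusted p = 0.437) in RCM1 and 1.67 (SE 1.00, adjusted p = 0.736) in the combination. Synm was called in VCR when only the VCR and vehicle tumors were fitted (2.28, SE 0.46, edgeR adjusted p = 0.0673, 2.76% of genes called). It was also called in VCR when m9 was left out (2.30, edgeR adjusted p = 0.0596). For that fit the share of all genes called is not given here. Without m5 the VCR value was 1.48 (adjusted p = 0.602), and without m9 that of RCM1 was 0.24 (adjusted p = 0.968).

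Sync encodes syncoilin, a partner of desmin in muscle, and did not share this pattern. It read 6.63, 6.94 and 8.07 TPM in vehicle tumors and 6.02, 7.94 and 7.94 TPM in VCR tumors. It read 7.58, 8.72 and 8.74 TPM in RCM1 tumors and 6.88, 7.44 and 8.35 TPM in combination tumors. The groups overlapped, and the log2 fold changes were 0.10, 0.21 and 0.07 with an SE of 0.15 each, with 95% intervals inside -0.25 and 0.53.

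**Figure D2:**
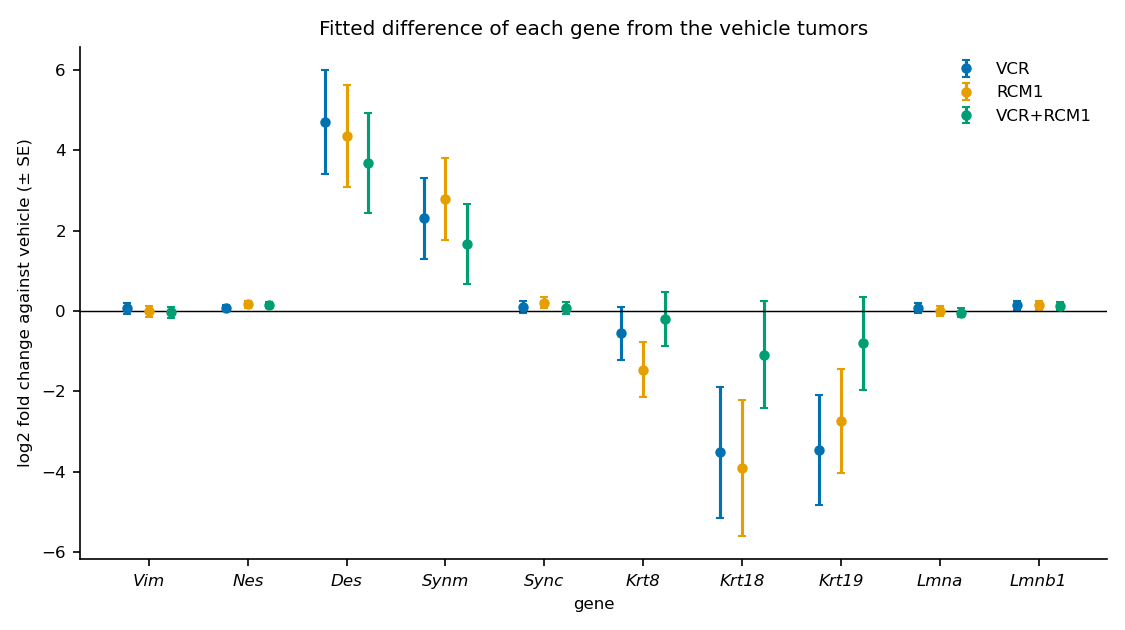
Log2 fold change of each gene against the vehicle tumors (vertical axis, edgeR fit, bars ± SE) for VCR, RCM1 and the combination. Des and Synm lie above 0 and the keratins below 0 with wide errors, and Vim, Nes, Sync, Lmna and Lmnb1 lie between -0.04 and 0.21.

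The 21 adult muscle fiber genes listed as markers were high in the same tumors as Des. Their summed level was 368.2 to 570.7 TPM in vehicle tumors, 2462 to 13782 TPM in VCR tumors, 523.5 to 23457 TPM in RCM1 tumors and 934.5 to 6103 TPM in combination tumors. Of the 20 that were tested, all 20 had a VCR log2 fold change above 0, 8 were called higher and 0 lower by edgeR, and 1 listed gene stayed under 1 TPM in every tumor. The most abundant were Acta1, skeletal actin, at 0.46 to 23.3 TPM in vehicle and 434.9 to 2338 TPM in VCR tumors, and Tnnt3, fast troponin T, at 12.1 to 30.0 and 295.3 to 1951 TPM. Myod1 read 0 to 0.03 TPM in vehicle, 1.15 to 2.16 in VCR, 0 to 2.19 in RCM1 and 0.41 to 0.69 TPM in the combination, and Myog 0 to 0.08, 1.72 to 2.44, 0 to 1.16 and 0.61 to 1.89 TPM; edgeR called both higher in VCR (adjusted p = 0.0819 and 0.0693). The part of these genes in the Des and Synm differences was not tested. In bulk tumors more cells of a type and more RNA per cell cannot be told apart.

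Read tumor by tumor, the 7 tumors with a fiber sum of 934.5 TPM or more were the 7 with Des at 29.5 TPM or more, and the other 5 held Des at 9.64 TPM or less. Per 1000 TPM of fiber genes, Des gave 10.1 to 16.0 TPM in those 5 tumors and 13.5 to 31.6 TPM in the 7. Des itself spanned 71.2-fold over the same tumors. Synm gave 2.40 to 3.51 TPM per 1000 TPM of fiber genes in the 5 tumors and 0.98 to 1.60 TPM in the 7, so its level spread less than that of the fiber genes. In m12 Des ranked 7 of 12 in TPM and the fiber genes ranked 7, but Synm ranked 12. As counts, m12 held 172 for Synm, inside the 168 to 194 of the vehicle tumors.

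**Figure D3:**
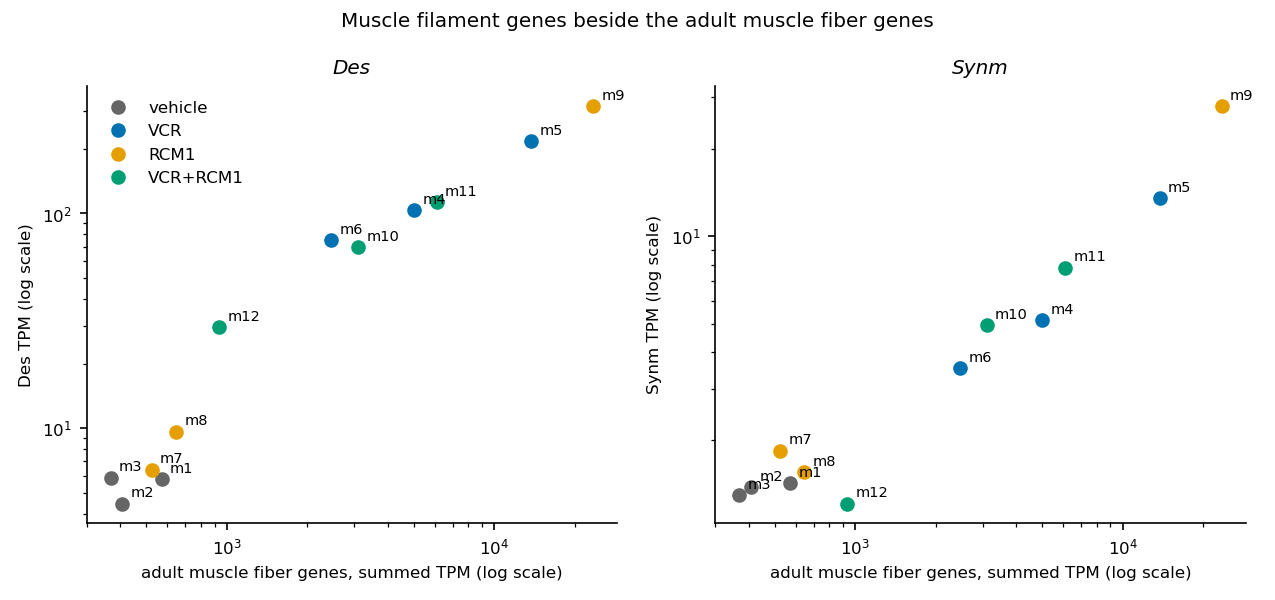
TPM of Des (left) and Synm (right) against the summed TPM of 21 adult muscle fiber genes, 1 point per tumor, both axes on a log scale. The 3 vehicle tumors and m7 and m8 lie at the lower left, m5 and m9 at the upper right, and m12 is low in Synm for its Des.

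Desmin partners at the Z-disc and costamere, the site where myofibrils join the membrane, summed to 151.4 to 153.0 TPM in vehicle tumors, 325.2 to 529.6 in VCR, 158.7 to 789.9 in RCM1 and 196.4 to 344.4 in the combination. Of 16 listed genes, all tested, 6 rose and 1 fell in VCR, and the median log2 fold change was 3.39, beside 0.00 over all genes tested. The 2 with the smallest adjusted p were Myoz2, a Z-disc protein (4.73, SE 0.96, adjusted p = 0.0694), and Cryab, the small heat shock chaperone of desmin (3.15, SE 0.74, adjusted p = 0.0759). Cryab rose from a mean of 6.22 to 55.2 CPM (counts scaled to library size). Nebl, which encodes the Z-disc protein nebulette, fell by 1.47 on the log2 scale (SE 0.32, adjusted p = 0.0712). In RCM1 and the combination edgeR called 0 of the 16, with medians of 3.04 and 2.33.

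The promoters of Des, Krt8, Krt18 and Vim are shown because Des was high with the fiber genes, Krt8 with Krt18, and Vim with neither. RefSeq's table for GRCm38.p6 held a promoter for 8 of the 10 genes. Each line gives 150 bases, 130 before the start of the gene and 20 from it on, on the gene's own strand, 5′ to 3′. Capitals mark 3 motifs searched on both strands. They are CAGCTG, an E-box that myogenic factors bind, CTA and TAG separated by any 4 bases, and TATAAA, the TATA box. The CTA and TAG motif is looser than a MEF2 site, in which the 4 bases between are A or T.

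Des, chr1:75360162-75360311, plus strand: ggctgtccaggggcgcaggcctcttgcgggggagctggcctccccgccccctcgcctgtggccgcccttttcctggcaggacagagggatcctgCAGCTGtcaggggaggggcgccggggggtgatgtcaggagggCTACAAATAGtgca
Vim, chr2:13574181-13574330, plus strand: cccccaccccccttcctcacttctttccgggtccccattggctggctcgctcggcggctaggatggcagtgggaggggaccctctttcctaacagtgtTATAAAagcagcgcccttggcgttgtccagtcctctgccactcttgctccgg
Krt8, chr15:102004323-102004472, minus strand: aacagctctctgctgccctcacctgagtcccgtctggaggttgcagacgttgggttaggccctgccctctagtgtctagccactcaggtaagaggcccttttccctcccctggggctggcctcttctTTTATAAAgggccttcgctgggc
Krt18, chr15:102028086-102028235, plus strand: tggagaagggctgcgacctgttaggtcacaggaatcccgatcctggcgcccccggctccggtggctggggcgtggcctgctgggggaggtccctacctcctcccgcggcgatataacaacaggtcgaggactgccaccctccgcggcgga

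The Des window held CAGCTG starting 36 bases before the gene's start, and the CTA and TAG motif from its base 7 on. The latter match has a C between CTA and TAG, so it is not a full MEF2 site. Windows of the same length held CAGCTG in 8.53% and the loose CTA and TAG motif in 1.75% of 32851 promoters. TATAAA lay 32 bases before the start of Vim and, as overlapping matches on both strands, at the start of Krt8, and was held by 7.36% of windows. The Krt18 window held none of the 3. Krt8 and Krt18 lie head to head on chromosome 15 with 23.9 kb between them. These positions follow RefSeq's start of each gene. GENCODE vM21 starts the matching transcript 37 bases further downstream for Des, so that both Des motifs then lie before the start, and 359, 140 and 36 bases further upstream for Vim, Krt8 and Krt18. A match of letters is a description and says nothing on binding in these tumors.

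The 3 simple epithelial keratins were low, and tumors m2 and m10 together held 45.0% of the TPM of Krt8 over all 12 tumors, 82.5% of that of Krt18 and 74.9% of that of Krt19. Krt8 read 0.95, 1.86 and 9.58 TPM in vehicle tumors, 2.34, 2.43 and 3.01 in VCR tumors, 1.23, 1.51 and 1.57 in RCM1 tumors and 1.74, 2.74 and 6.30 in combination tumors. The high values belonged to m2 of the vehicle group and m10 of the combination group. These were 5.32 and 3.50 times the median of the other 10 tumors.

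Krt18, the usual partner of Krt8, read 0.08, 0.80 and 5.84 TPM in vehicle tumors and 0, 0.20 and 0.31 TPM in VCR tumors. It read 0.04, 0.08 and 0.29 TPM in RCM1 tumors and 0, 0.09 and 3.08 TPM in combination tumors. The high values were again m2 and m10, with 129 and 74 counts. In m6 and m12 a count of 0 allows up to 0.0989 and 0.0961 CPM, a limit that covers counting error only.

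Krt19, a type I keratin of ducts and simple epithelia, read 0.45, 1.50 and 11.7 TPM in vehicle tumors and 0.19, 0.50 and 0.55 TPM in VCR tumors. It read 0.06, 0.74 and 1.11 TPM in RCM1 tumors and 0.42, 0.59 and 6.50 TPM in combination tumors. As counts, m2 held 218 and m10 held 144, whereas the other 10 tumors held 1 to 31. Apart from m2 and m10, the 4 groups overlapped in TPM.

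The fold changes of the keratins against vehicle moved with m2 and, in the combination, also with m10. For Krt19 the log2 difference was -3.45 (SE 1.37) in VCR, -2.73 (SE 1.29) in RCM1 and -0.80 (SE 1.16) in the combination. Without m2 these became -1.37, -0.64 and 1.29, and without m10 that of the combination became -3.40. Without both they were -1.36 (SE 0.84), -0.63 (SE 0.81) and -1.28 (SE 0.94).

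EdgeR called neither Krt8 nor Krt18 in any comparison. Krt8 differed from vehicle by log2 fold changes of -0.56 (SE 0.67, edgeR adjusted p = 0.664) in VCR, -1.46 (SE 0.69, adjusted p = 0.527) in RCM1 and -0.20 (SE 0.66, adjusted p = 0.963) in the combination. Without m2 the sign turned, to 0.93, 0.05 and 1.30. Krt18 differed by -3.52 (SE 1.63, edgeR adjusted p = 0.229), -3.91 (SE 1.69, adjusted p = 0.484) and -1.08 (SE 1.34, adjusted p = 0.871), and without m2 by -1.24, -1.61 and 1.20. Without m10 its value in the combination was -5.54.

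Some other simple epithelial genes were high in the same 2 tumors. Of 13 listed, 6 were higher in m2 and m10 than in every other tumor, and 7 were not; of the 7 listed genes that passed the filter on low counts 2 were, beside 11% of all genes tested. The 6 were Epcam, Cdh1, Cldn3, Cldn4, Esrp1 and Esrp2, of which all but Cdh1 are named here, as are Krt7, Krt5, Krt6a and Krt14, after their values were seen. Cdh1 in m2 and m10 exceeded the next tumor only narrowly (1.48 and 1.51 against 1.45 TPM). So did Cldn3 (0.094 against 0.090 TPM) and Esrp2 (0.17 against 0.14 TPM) in m10, both near 0. Epcam, an epithelial adhesion protein, read 1.39 TPM in m2 and 0.62 TPM in m10 against 0.03 to 0.35 TPM elsewhere, and Cldn4, a tight junction claudin, read 0.67 and 0.77 TPM against 0 to 0.09 TPM. Krt7, another simple epithelial keratin, read 2.37 and 1.07 TPM against 0.07 to 0.51 TPM. The summed level of the 13 did not single these tumors out (10.6 to 16.0 TPM in vehicle, 9.81 to 12.4 in VCR, 10.3 to 11.6 in RCM1 and 10.4 to 12.2 in the combination), since Spint1, a protease inhibitor at a mean of 7.49 TPM, made up most of it and was at 6.09 TPM in m2. The next most abundant was Cdh1, at a mean of 1.15 TPM, and 9 of the 13 stayed under 1 TPM in all tumors. The part of epithelial cells in the keratin values was not tested.

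Most skin keratinocyte markers were near 0. Of 16 listed, 13 stayed under 1 TPM in all tumors, among them Krt5 and Krt14, and the sums were 15.6 to 19.3 TPM in vehicle, 18.9 to 20.6 in VCR, 16.3 to 19.2 in RCM1 and 16.9 to 21.5 in the combination. The sums were made mostly of Sfn and Sbsn, at means of 8.93 and 5.04 TPM. Of the 16, only 2, Krt5 and Krt6a, were higher in m2 and m10 than in every other tumor, beside 11% of all genes tested. They read 0.25 and 0.18 TPM for Krt5 and 0.18 and 0.22 TPM for Krt6a. The rest did not show this, and Sfn and Sbsn were lowest of all tumors in m2, at 6.78 and 3.60 TPM. Among 8 mesothelial genes 7 stayed under 1 TPM, with Msln alone high at a mean of 263.6 TPM and Upk1b next at 0.13 TPM. Msln was at 200.6 to 242.6 TPM in vehicle and 290.5 to 305.8 TPM in VCR, and was called higher there (0.51 on the log2 scale, SE 0.10, edgeR adjusted p = 0.0688). Only 2 of the 8 were tested, and the other, Lrrn4, went the opposite way in VCR without a call (-0.86, SE 0.45, edgeR adjusted p = 0.278).

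**Figure D4:**
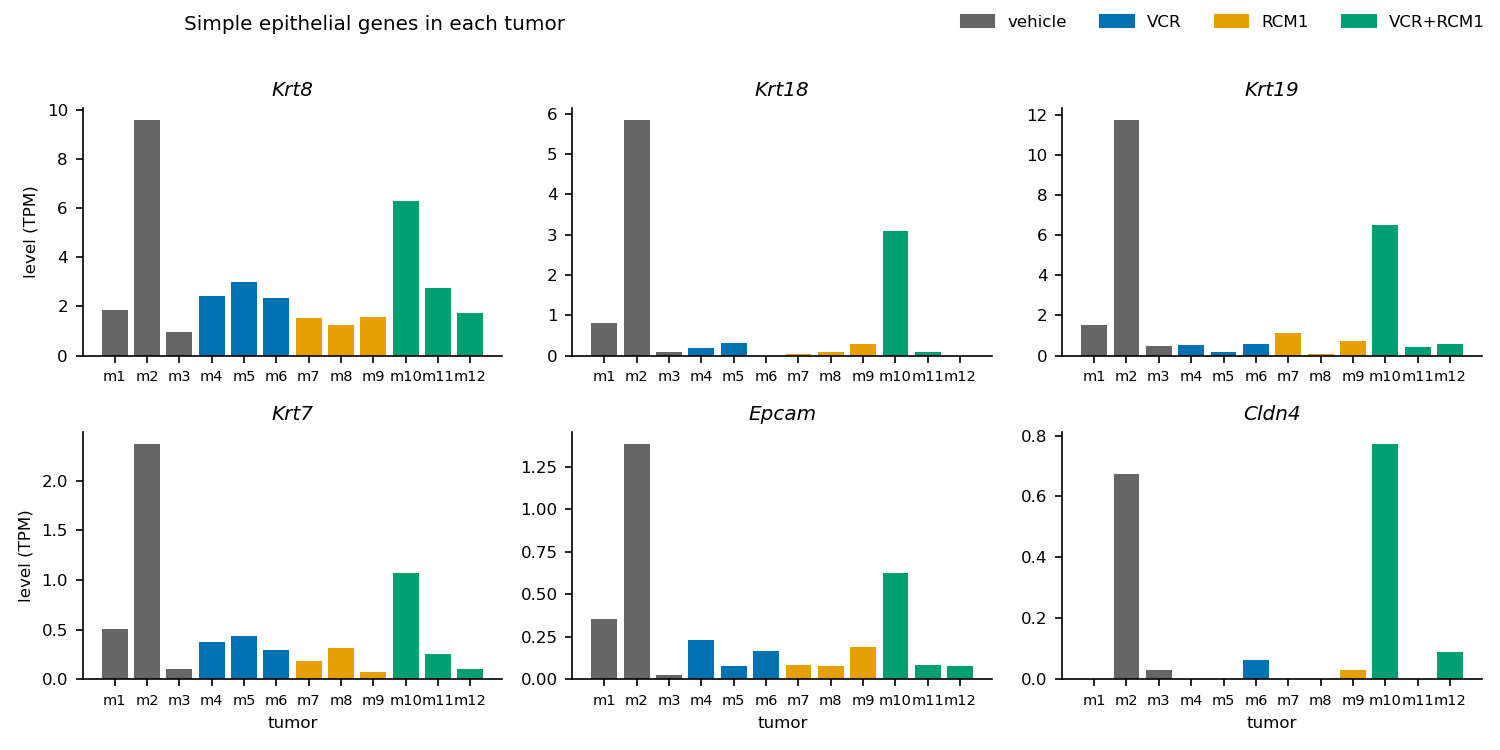
TPM of 6 simple epithelial genes (vertical axes, from 0) in tumors m1 to m12, bars colored by group. Krt7, Epcam and Cldn4 were picked for this pattern after their values were seen, and 7 of the 13 listed epithelial genes do not show it. In each panel m2 of the vehicle group and m10 of the combination group are the 2 highest tumors.

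The type II and type I chains were compared in TPM. In m2 the type I chains Krt18 and Krt19 summed to 17.6 TPM beside 9.58 TPM of Krt8, and in m10 to 9.58 TPM beside 6.30 TPM. In m4, m5 and m6 they summed to 0.70, 0.50 and 0.55 TPM beside 2.43, 3.01 and 2.34 TPM of Krt8. Krt8 fell short of the sum of both partners in m1, m2 and m10 and exceeded it in the other 9 tumors.

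The lamins differed little between groups, and edgeR called neither Lmna nor Lmnb1. Lmna read 506.6, 562.5 and 618.2 TPM in vehicle tumors, 540.6, 562.3 and 592.3 in VCR tumors, 521.2, 552.2 and 582.4 in RCM1 tumors and 534.3, 546.6 and 586.4 in combination tumors. All 4 groups overlapped. Log2 fold changes against vehicle were 0.07, 0.00 and -0.04 with an SE of 0.12 each, and the 95% intervals lay within -0.30 and 0.34.

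Lmnb1 read 90.0, 101.8 and 121.7 TPM in vehicle tumors and 104.8, 107.6 and 117.6 TPM in VCR tumors. It read 100.3, 108.9 and 128.7 TPM in RCM1 tumors and 106.2, 112.4 and 125.6 TPM in combination tumors. The groups overlapped, with log2 fold changes of 0.14, 0.14 and 0.12 (SE 0.11 each, smallest edgeR adjusted p = 0.46). The cell cycle genes, 13 listed, summed to 1296 TPM in m3 and 1368 TPM in m7, the 2 tumors lowest in Lmnb1, and to 1822, 1762 and 1727 TPM in m2, m8 and m10, the 3 highest in Lmnb1. In Lmna the order was another, with m3 the highest of the 12. Of the 13 cell cycle genes 2 rose and 0 fell in VCR, and Pcna and Top2a, the most abundant, averaged 421.3 and 217.4 TPM.

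Lmna is spliced into lamin A and lamin C. The lamin C form (10 coding exons, 1722 coding bases) made 50.7% of Lmna TPM over the 12 tumors, the lamin A form (12 coding exons, 1995 coding bases) 39.4%, and a form that starts at an internal exon (first base 88493312 on chromosome 3 of GRCm38; 1386 coding bases), as known for lamin C2, 8.18%. The lamin C share was 52.6% ± 1.9 (SD, n = 3) in vehicle, 47.9% ± 2.6 in VCR, 50.9% ± 1.9 in RCM1 and 51.7% ± 1.5 in the combination. Each VCR tumor was below each vehicle tumor, which in a two-sided exact permutation test of 3 against 3 gives p = 0.1, the smallest that design allows (adjusted p = 0.6). Among 12 such tests in 4 genes with 2 or more forms, Synm, Sync, Krt19 and Lmna, the smallest adjusted p was 0.6. With 3 tumors a group no adjusted p could fall under 0.1, so these tests say nothing on whether a share differed.

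The internal-start share of Lmna is given as a description, since it was looked at after the values were known. It was 6.88%, 7.20% and 7.63% in vehicle tumors, 9.14%, 9.33% and 10.7% in VCR tumors, 7.03%, 7.30% and 8.64% in RCM1 tumors and 6.82%, 7.65% and 9.83% in combination tumors. The 3 VCR tumors were above all vehicle tumors, and so were m9 of RCM1 and 2 of the 3 combination tumors, of which the lower was only just above the highest vehicle tumor (7.65% against 7.63%). The short exons that separate these forms make the shares estimates of the quantifier, whose own error was not used here.

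**Figure D5:**
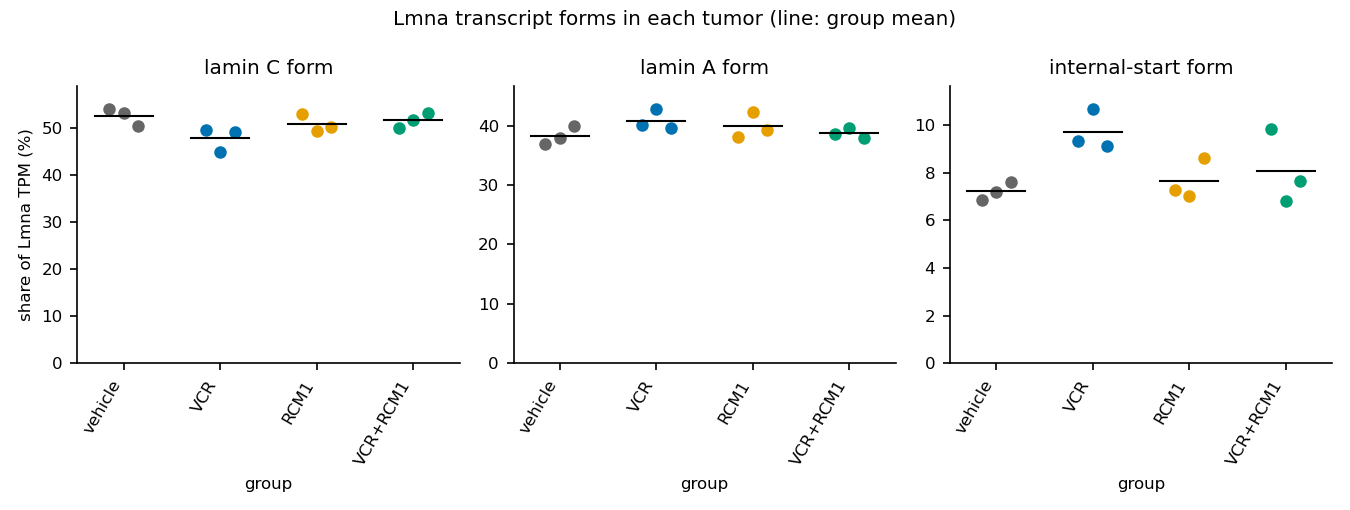
Share of Lmna TPM (percent, axes from 0) held by the lamin C form, the lamin A form and the form with the internal start, by group; points are tumors and lines are group means. VCR tumors lie at 45.0 to 49.6% for lamin C against 50.5 to 54.0% in vehicle, and at 9.14 to 10.7% against 6.88 to 7.63% for the internal start.

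Genes of the nuclear envelope and of lamin processing were mostly level. Of 21 listed, all tested, edgeR called 0 higher and 3 lower in VCR and 0 in RCM1 or the combination, with medians of 0.01, 0.02 and 0.00. The 3 that fell were nesprin genes, which tie the nuclear envelope to the cytoskeleton: Syne1 by 0.45 on the log2 scale (SE 0.08, adjusted p = 0.0651), Syne2 by 0.45 (SE 0.10, adjusted p = 0.0748) and Syne3 by 0.92 (SE 0.23, adjusted p = 0.0845), the last named after its value was seen. The most abundant of the list were Banf1 and Tmpo, chromatin tethers of the envelope, at means of 490.2 and 156.8 TPM.

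Among 16 other intermediate filament genes 10 were tested, and 1 rose in VCR and 0 fell. It was Krt80, a type II keratin (0.60, SE 0.17, adjusted p = 0.0967), at 11.3 to 17.8 TPM in vehicle and 19.2 to 23.8 TPM in VCR tumors. Lmnb2, the other B-type lamin gene, was the most abundant of them at a mean of 37.0 TPM, and 11 of the 16 stayed under 1 TPM in all tumors. The median log2 fold changes were 0.30, 0.16 and 0.22 in VCR, RCM1 and the combination.

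Of 14 genes for filament linkers and desmosomes 10 were tested. In VCR, Jup, plakoglobin of cell junctions, rose (1.11, SE 0.21, adjusted p = 0.0651), from 20.4 to 43.9 CPM, and Dst, a linker of filaments to other cytoskeleton, fell by 0.35 on the log2 scale (SE 0.09, adjusted p = 0.0854). None was called in RCM1 or the combination by edgeR. Plec, plectin, was the most abundant of them at a mean of 96.4 TPM, and Pkp4 followed at 28.7 TPM.

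Markers of the other cells a flank tumor can hold were read beside these genes. Of myogenic regulators and embryonic muscle genes 2 of 10 tested rose in VCR, and of pericyte and smooth muscle genes 2 of 12. Of fibroblast genes 3 of 10 rose and of endothelial genes 5 of 12, and in these lists none fell. Beside each count of genes called in VCR, here and for the lists above, stands the share of all genes, 5.55% (493 higher and 484 lower). Summed fibroblast markers, cells that also hold Vim, ran from 1388 to 1724 TPM in vehicle, 1530 to 1824 in VCR, 1549 to 2172 in RCM1 and 1617 to 1887 in the combination. Endothelial markers ran from 102.7 to 145.2 TPM in vehicle, 146.2 to 183.9 in VCR, 140.6 to 175.6 in RCM1 and 152.2 to 156.1 in the combination, and pericyte markers from 212.0 to 288.6 TPM over all tumors. Pdgfrb and Acta2 led the pericyte list at means of 75.0 and 66.9 TPM, Col1a2 and Col3a1 the fibroblast list at 776.9 and 721.1 TPM, and Cdh5 and Pecam1 the endothelial list at 28.5 and 25.5 TPM. The myogenic list, led by Cdh15 and Myf5, summed to 132.5 to 163.8 TPM in vehicle, 180.2 to 189.6 in VCR, 142.9 to 186.8 in RCM1 and 145.9 to 176.2 in the combination. The Schwann cell list (led by Prx and Mbp), the adipocyte list (Fabp4 and Car3) and the leukocyte list (Lyz2 and Cd68) had 0 genes called by edgeR in any of the 3 comparisons. The part of these cells in Vim, Nes or Lmna was not tested.

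The genes whose groups did not overlap in CPM are read against the share of all genes. Against vehicle, 2 of the 9 genes (Des and Synm) did not overlap in VCR beside 24.4% of all genes, 3 (Des, Synm and Nes) in RCM1 beside 11.4%, and 2 (Des and Nes) in the combination beside 12.6%. The share in VCR was near that of all genes. The 3 comparisons share their vehicle tumors.

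No difference between the combination and either drug alone passed the test for any of the 9 genes. Des was lower by 1.02 on the log2 scale in the combination than in VCR (SE 1.10, 95% interval -3.43 to 1.39, edgeR adjusted p = 0.875) and by 0.68 than in RCM1 (SE 1.10, 95% interval -3.08 to 1.72, adjusted p = 1.00). The intervals are wide, and a difference of 2-fold either way stays inside them. The interaction, which asks whether both drugs gave the sum of their single effects on the log2 scale, was -5.38 for Des (SE 1.66, edgeR adjusted p = 0.293), -3.41 for Synm (SE 1.39, adjusted p = 0.321) and 6.34 for Krt18 (SE 2.37, adjusted p = 0.302). These 3 of 9 had an unadjusted p under 0.05, as did 2437 of all 17602 genes, and were not called by edgeR. Krt18 passed the filter on low counts only through m1, m2 and m10, the tumors where it was highest. Its p therefore lends no support. DESeq2 with all 12 tumors called Des alone of the 9, beside 472 of 16591 genes. The RCM1 value that enters the Des interaction fell from 4.37 to 0.62 without m9, and the Krt18 fold changes moved with m2 and, in the combination, also with m10.

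The genes whose pattern was most like that of each gene were sought by Pearson's r of log2 CPM over the 12 tumors, which is a description over tumors that share group and depth. Each is the highest r out of all genes tested, so a high value is partly a result of that choice. Krt18 and Krt19 were high in m2 and m10, and how far their r rests on those tumors was not tested. For Krt19 the 5 nearest were Traf3 (0.97), Gm10130 (0.93), Urb1 (0.92), Zbtb40 (0.92) and Trmt10a (0.92). For Des they were Trim54 (1.00), Fitm1 (0.99) and Kcnc4 (0.99), and for Synm Mapt (0.99), Cib2 (0.98) and Tacc2 (0.98). For Lmnb1 they were Pbk, Hmgn2 and Ppil1 (0.95 each), and for Lmna Rps2 (0.95), Prelid1 (0.94) and Alg5 (0.94). For Vim they were Gatd1 (0.94), Naa80 (0.93) and Flii (0.93), and for Nes Gmfg-ps (0.86), Tstd3 (0.85) and Pax6 (0.85). For Sync they were Rhbdl2 (0.88), Gm34324 (0.87) and Micu2 (0.86), for Krt8 Gpr85 (0.91), Srpk1 (0.91) and Ppargc1b (0.90), and for Krt18 Gm10130 (0.89), Gm36279 (0.89) and Heatr1 (0.88).

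Among the genes described here, the pairs with the highest r over the 12 tumors were Des with Synm (0.91), Vim with Lmna (0.84), Krt18 with Krt19 (0.80), Krt8 with Krt18 (0.79) and Nes with Lmnb1 (0.75). Vim ran opposite to Krt19 (-0.69) and Krt18 (-0.67). Krt18 and Krt19 held few counts outside m2 and m10. Des was at 0.04 with Vim, 0.13 with Nes and 0.24 with Sync.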

How the data were processed

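RNA from 12 tumors was poly-A selected, with a stranded kit that the labels describe as giving non-stranded libraries, so reads of a gene and an overlapping antisense gene may not be told apart. The authors quantified reads with kallisto against transcripts of GRCm38 (version and index not given in the sources used here) and named DESeq2 for testing. The deposited values were estimated counts, effective lengths and TPM per RefSeq transcript. No comparison columns by the authors were used. All 120299 transcripts matched a RefSeq gene, and counts and TPM were summed to 38898 genes. Limits given for a count of 0 cover counting error only, and the 95% intervals come from the fit across tumors.

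Estimated counts were rounded and fitted with edgeR 4.0.16 (quasi-likelihood, TMM, filterByExpr with at least 10 counts, all 12 tumors in 1 model of 4 groups), with limma 3.58.1 and DESeq2 1.42.0 in R 4.3.3 as alternatives. P-values were adjusted over all 17602 genes tested, with a threshold of 0.1; in VCR a further 29 genes sat at that threshold to rounding and were not called. SEs were derived from the F statistic. Likeness used log2 CPM with a prior count of 2. Shares of transcripts were tested by exact permutation for genes with at least 2 forms of 5% or more, with scipy 1.17.1. The script was tested on simulated data. Replicate libraries differed by more than sampling noise (chi-square per degree of freedom 13.8 to 81.5 in the 12 pairs within groups). No batch is named in the labels or methods.

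The genes described, the lists and the tests were chosen with earlier results of these data known. Named genes are the 10 genes themselves, the 2 with the smallest adjusted p per direction in each pathway list, the 2 most abundant of each marker list, and the nearest by likeness. The 2 most abundant of each pathway list, the epithelial genes named beside the keratins (Cdh1 apart), Myod1, Myog and any other gene outside that rule were added after their values were seen. The alternatives were DESeq2's size factors, other filters, length offsets, pairwise fits, other tools, a threshold of 0.05, RPKM in place of TPM and tumors left out.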

Additional observations from a re-analysis of the deposited data

How the results depend on the processing

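No paired analysis was possible because each tumor carries a number of its own. The 9 genes that were tested gave 586 log2 fold changes against vehicle over 22 alternatives; 536 kept their direction and their side of the threshold, 33 turned sign, 10 lost a call (all Des in VCR) and 7 gained one (Des or Synm). Of the 9, the number called in VCR was 2 with edgeR or DESeq2 on only the groups compared, 0 with limma-voom, 0 without m2 and m10, 0 at a threshold of 0.05, and 0 to 2 as each tumor was left out. DESeq2 with all 12 tumors called 1 in RCM1 and 1 for the interaction, in each case Des. In the combination the number was 1 with DESeq2 on only the groups compared, 1 without m5 and m9, and 0 to 1 as each tumor was left out. The share of all genes called is not given here for DESeq2 on only the groups compared or for single tumors left out. Calls in those fits cannot be set beside it. Leaving out m2 and m10 together was chosen after seeing the data. The tumors m5 and m9 are those highest in Des, so the Des calls without them lend no further support. The cause of these changes was not tested.

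The sign of small differences was not stable. Leaving out each tumor in turn moved the VCR value from -0.024 to 0.22 for Vim, -0.016 to 0.21 for Sync, -1.01 to 0.93 for Krt8 and -0.026 to 0.21 for Lmna. It moved the RCM1 value from -0.085 to 0.15 for Vim, -1.91 to 0.046 for Krt8 and -0.10 to 0.14 for Lmna. It moved the combination value from -0.12 to 0.13 for Vim, -0.020 to 0.15 for Sync, -0.86 to 1.30 for Krt8, -5.54 to 1.20 for Krt18 and -0.14 to 0.10 for Lmna. With limma-voom the sign turned for Krt8 in VCR (0.076) and in the combination (0.27) and, in RCM1, for Vim (0.0067) and Lmna (0.0084). Without m5 and m9 it turned for Sync (-0.022) and Lmna (-0.0098) in VCR and for Vim (0.031) and Lmna (0.053) in RCM1. Without m2 and m10 it turned for Vim (-0.015) and Krt8 (0.95) in VCR, Krt8 (0.055) in RCM1, and Vim (0.0083) and Krt8 (0.66) in the combination; Krt18 then did not pass the filter on low counts. Of the 12 shares of the leading transcript, 3 turned sign as a tumor was left out: that of Sync ranged from -3.02 to 1.80 percentage points in VCR and from -3.11 to 1.68 in the combination, and that of Krt19 from -49.2 to 0.81 in RCM1, where single tumors held as few as 1 count. The order of the 10 mean levels was kept with RPKM in place of TPM. Depth limited Krt18 and Krt19, which held 0 to 31 counts in all tumors but m2 and m10.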
